A study of Homo sapiens with 24 samples.

Results

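The Hippo pathway transcripts described here are 46 genes chosen by name from 12547 measured genes: the kinases of the cascade, the membrane and polarity proteins that feed it, the phosphatase complex that opposes it, and the YAP, TAZ and TEAD factors at its end. All 46 listed symbols were found, and all 46 passed the filter on low values. They were measured in U2OS, a human osteosarcoma cell line, as polyA RNA from 24 libraries in 12 groups of 2. The QKI-guide genotypes were sgQKI+QKI7-WT (a guide against the RNA-binding protein QKI, with the QKI7 isoform added back), sgQKI+QKI7-△KH (the same guide with QKI7 whose KH domain, the part that contacts RNA, is deleted by its label) and sgQKI+EV (the same guide with an empty vector). The control was sgNS+EV, a non-targeting guide with an empty vector, and the add-back genotypes are called QKI7-WT and QKI7-△KH below. Every genotype was sampled at 0, 4 and 8 h of exposure to actinomycin D (5 µg/mL), which blocks transcription, together with sodium arsenite (200 µM), an oxidative stressor. All groups after 0 h therefore carry both agents. The labels do not say whether the lines were clones or pools, how strongly the add-back was expressed, or whether the 2 libraries of a group came from separate cultures. The p-values measure the spread between these libraries, which may be technical.

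In the Hippo pathway, the kinases MST1 and MST2 (STK4 and STK3) with SAV1 activate LATS1 and LATS2 with their MOB1 partners, and LATS phosphorylates YAP (YAP1) and TAZ (WWTR1), which are then kept out of the nucleus or degraded. Unphosphorylated YAP and TAZ bind the TEAD factors and switch on growth genes. QKI is a STAR-family protein whose KH domain region binds mRNAs carrying an ACUAAY element, often with a shorter UAAY partner nearby, and it takes part in splicing, localisation and stability of its targets.

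The question of the series is how QKI affects mRNA stability, so the 3′ untranslated region (UTR) of each member was searched for that element on the transcript strand only, as ACTAAC or ACTAAT, and for the paired form with a TAAC or TAAT that lies 1 to 20 bases away and does not overlap it. 1 GENCODE 29 transcript per gene was used, and all 46 members and 11305 genes of the table had a 3′ UTR. The single element occurred in 27 of 46 members (58.7%), against 34.7% of all genes, and the paired form in 14 of 46 (30.4%), against 16.3%. Members also had longer 3′ UTRs, with a median of 2192 bases against 1134, and per length the difference was small, with 0.376 single elements per kilobase over the members and 0.354 over all genes. Among the 19 members with no match were FRMD6, FAT1, LATS2, NF2 and MAP4K3, and YAP1 held 1 single element and no pair. The first paired form is shown for 6 members whose values recur below, as 30 bases 5′ to 3′ with the matched letters in capitals. A match is a description of letters and not a measured binding site.
MOB1B: ctTAATtaccttagttagatatACTAATgg
TAOK1: accaaACTAATgaccaaacagTAATcaatc
TEAD1: aggttaacACTAATctccTAATccattaaa
WWTR1: actgttTAATattttgaACTAATattattt
LATS1: atataACTAATtgtttcgcaTAATtctgaa
MPP5: tTAATatagaaatgatatcaataACTAATg
On GRCh38 these lie at MOB1B chr4:70986064-70986093 (plus strand), TAOK1 chr17:29544870-29544899 (plus strand), TEAD1 chr11:12937891-12937920 (plus strand), WWTR1 chr3:149519120-149519149 (minus strand), LATS1 chr6:149658267-149658296 (minus strand) and MPP5 chr14:67335404-67335433 (plus strand), each in the 3′ UTR of the transcript used for its gene. TAOK1 held the most single elements of these, 9, in a 3′ UTR of 8882 bases.

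The deposited values are a linear signal scaled to spike-in RNAs, and read depth is unknown. The signal of all measured genes without ribosomal RNA summed to between 667500 and 1211000 per library. The targeted gene QKI had signals of 35.98 and 32.7 for the sgQKI+EV libraries, 60.4 and 46.3 in QKI7-WT, 47.6 and 50.2 in QKI7-△KH and 59.98 and 48.2 in sgNS+EV at 0 h, and its row cannot separate the edited locus from the add-back. Of 8 mesenchymal markers listed 5 were in the table, with VIM between 2504 and 4360 in every library. Of 5 epithelial markers EPCAM and CLDN4 were present at 2.21 to 17.1 and the other 3, like all 4 blood cell markers, were not in the table used here; the labels call the cells epithelial. In bulk RNA, fewer cells and less RNA per cell cannot be told apart. Of the 12 groups, QKI7-WT at 4 h had the least alike libraries, with a Pearson r of 0.989 across genes. Across the 46 members, replicate 1 minus replicate 2 of that group ran opposite to the 4 h difference between sgQKI+EV and sgNS+EV (r = −0.90; −0.68 over 12547 genes; no library is shared). In QKI and MOB1B replicate 1 lay near the sgNS+EV libraries while replicate 2 lay nearer the other QKI-guide libraries. Counts of members called at 4 h that use that group are therefore given with and without replicate 1.

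Over the 8 h chase nearly every member fell, and the median member lost more than the median gene. In sgQKI+EV all 46 members fell, as did 90.5% of all genes. All 46 fell in QKI7-WT (90% of all genes) and in QKI7-△KH (90.6%). In sgNS+EV 45 fell (88.2%), and TAOK3 did not pass (−0.33, SE 0.16, adjusted p = 0.0629). The test was limma on log2 of the value plus 1, fitted to all 24 libraries and adjusted over all genes. The median share of the 0 h signal left at 8 h was 43.1% for members against 53.3% for all genes in sgQKI+EV, 46.5% against 55.2% in QKI7-WT, 47.5% against 55.9% in QKI7-△KH, and 50.5% against 58.5% in sgNS+EV. The share of members that fell lies near that of all genes, and the difference in the size of the loss was not tested. Quantile normalisation, which sets every library to 1 distribution and so measures change against the typical gene, turned 9 of the 45 falls in sgNS+EV into values above 0, and 11, 10 and 10 of those in sgQKI+EV, QKI7-WT and QKI7-△KH. TEAD2, TEAD3, STK3, TAOK2, RASSF1, AMOT, WTIP and PRKCI were among them in every genotype. Scaling to library totals without ribosomal RNA turned none.

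**Figure D1:**
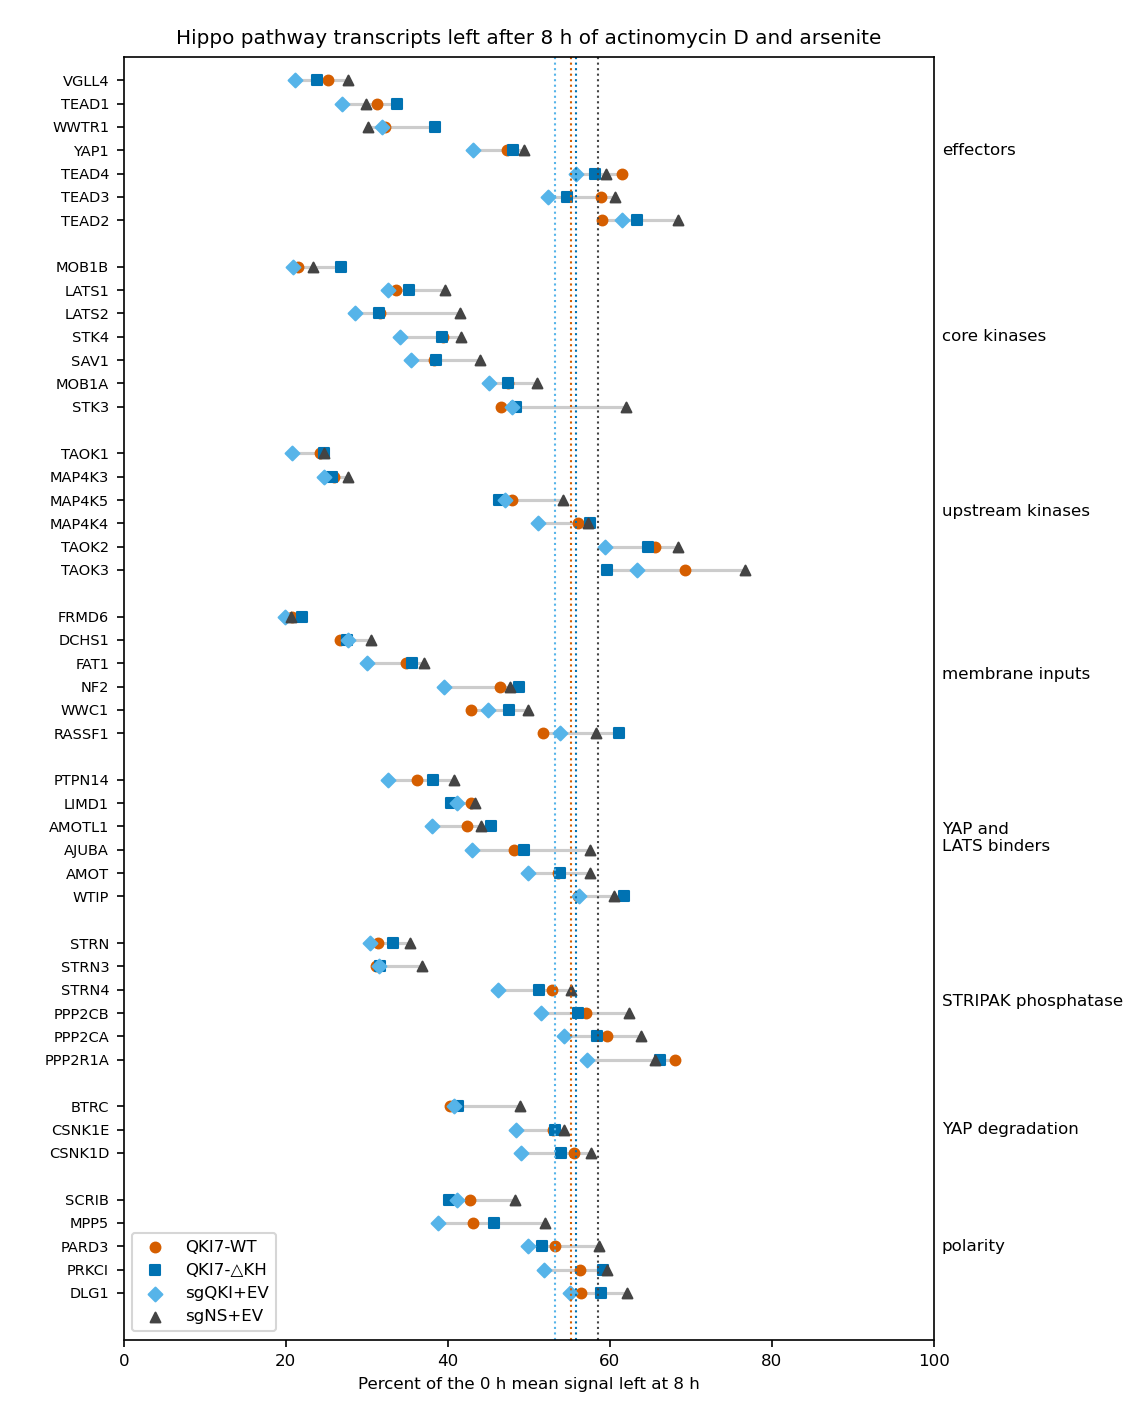
Percent of the 0 h group mean left at 8 h (x axis) for 46 Hippo pathway genes grouped by role (rows, sorted by sgNS+EV), in 4 genotypes (symbols, group means of 2 libraries; grey lines join the lowest and highest genotype). Dotted lines are the medians of all genes, 53.3% to 58.5%; FRMD6, MOB1B, TAOK1, MAP4K3 and VGLL4 keep 19.9% to 27.6% while TAOK3, TAOK2 and TEAD2 keep 59.0% to 76.7%.

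Among the membrane inputs the loss was steepest for FRMD6 (chromosome 14, 51489100 to 51730727 on GRCh38), a FERM-domain protein that acts upstream of the kinases. FRMD6 had signals of 84.9 and 78.01 at 0 h, 43.6 and 40.4 at 4 h and 17.3 and 16.6 at 8 h in QKI7-WT, against 98.4 and 95.4 at 0 h, 41.1 and 40.9 at 4 h and 21.2 and 21.4 at 8 h in QKI7-△KH. For FRMD6, sgQKI+EV libraries gave 86.5 and 82.6 at 0 h, 37.5 and 34.8 at 4 h and 16.9 and 16.7 at 8 h, and sgNS+EV libraries 89.5 and 87.8 at 0 h, 47.8 and 46.1 at 4 h and 17.7 and 18.9 at 8 h. No library at 8 h overlapped one at 0 h, and the change was −2.27 in sgQKI+EV, −2.20 in QKI7-WT, −2.13 in QKI7-△KH and −2.22 in sgNS+EV on the log2 scale (SE 0.07, adjusted p at most 1.64e-16). An exponential loss between the 0 h and 8 h means would give FRMD6 a half-life of 3.43 h in sgQKI+EV and 3.51 h in sgNS+EV. The atypical cadherins DCHS1 and FAT1 kept 27.7% and 30.03% in sgQKI+EV and 30.5% and 37.1% in sgNS+EV. NF2 (merlin, a tumour suppressor that recruits LATS to the membrane; chromosome 22, 29603556 to 29698598) kept 39.5% in sgQKI+EV, 46.4% in QKI7-WT, 48.8% in QKI7-△KH and 47.7% in sgNS+EV. WWC1 (KIBRA), a partner of NF2, and RASSF1, a scaffold for the MST kinases, kept more, 44.98% and 53.9% in sgQKI+EV and 49.9% and 58.3% in sgNS+EV.

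The kinase tiers held members with small and with large losses. Of the TAO and MAP4K kinases, which act beside or in place of MST, TAOK1 kept 20.8% and MAP4K3 24.7% in sgQKI+EV, against 24.7% and 27.6% in sgNS+EV. MAP4K4, MAP4K5, TAOK2 and TAOK3 kept 47.1% to 63.4% in sgQKI+EV and 54.3% to 76.7% in sgNS+EV. In the core cassette MOB1B, an activating partner of LATS, kept 20.9% in sgQKI+EV, 21.5% in QKI7-WT, 26.8% in QKI7-△KH and 23.4% in sgNS+EV, and its paralog MOB1A 45.1% in sgQKI+EV and 51.03% in sgNS+EV. LATS1 and LATS2 were closer to each other. LATS1 (chromosome 6, 149658153 to 149718256) had signals of 21.99 and 20.2 at 0 h, 17.1 and 11.97 at 4 h and 7.12 and 7.07 at 8 h in QKI7-WT, against 24.8 and 23.6 at 0 h, 11.5 and 11.4 at 4 h and 8.36 and 8.67 at 8 h in QKI7-△KH. For LATS1, sgQKI+EV libraries gave 21.3 and 18.8 at 0 h, 10.9 and 10.2 at 4 h and 6.66 and 6.45 at 8 h, and sgNS+EV libraries 20.1 and 18.2 at 0 h, 15.6 and 15.3 at 4 h and 7.70 and 7.53 at 8 h. Every 8 h library of LATS1 lay below every 0 h library. LATS2 (chromosome 13, 20973032 to 21061547) had signals of 21.2 and 22.2 at 0 h, 13.6 and 12.4 at 4 h and 7.29 and 6.45 at 8 h in QKI7-WT, against 27.2 and 25.8 at 0 h, 11.7 and 12.02 at 4 h and 7.996 and 8.75 at 8 h in QKI7-△KH. For LATS2, sgQKI+EV libraries gave 24.4 and 20.9 at 0 h, 10.6 and 10.1 at 4 h and 6.19 and 6.72 at 8 h, and sgNS+EV libraries 18.7 and 18.8 at 0 h, 11.8 and 11.7 at 4 h and 7.54 and 8.01 at 8 h. In LATS2 the 0 h libraries of sgQKI+EV lay above those of sgNS+EV and the 8 h libraries below them, so the share left was 28.5% in sgQKI+EV and 41.5% in sgNS+EV. The MST kinases STK4 and STK3 kept 34.1% and 47.96% in sgQKI+EV and 41.6% and 61.97% in sgNS+EV, and their scaffold SAV1 35.5% in sgQKI+EV and 44.04% in sgNS+EV.

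At the end of the pathway the co-activators and TEAD factors also split. YAP1 (chromosome 11, 102110461 to 102233423) had signals of 72.5 and 63.03 at 0 h, 60.99 and 51.6 at 4 h and 32.2 and 31.96 at 8 h in QKI7-WT, against 85.1 and 86.7 at 0 h, 50.2 and 48.4 at 4 h and 39.7 and 42.8 at 8 h in QKI7-△KH. For YAP1, sgQKI+EV libraries gave 77.3 and 73.4 at 0 h, 47.1 and 46.1 at 4 h and 32.2 and 32.8 at 8 h, and sgNS+EV libraries 80.6 and 74.995 at 0 h, 61.3 and 61.2 at 4 h and 40.1 and 36.7 at 8 h. The group mean of YAP1 was lower at each later time in all 4 genotypes. WWTR1 (TAZ; chromosome 3, 149517235 to 149736714) had signals of 32.3 and 28.6 at 0 h, 29.9 and 22.3 at 4 h and 10.1 and 9.53 at 8 h in QKI7-WT, against 36.3 and 34.1 at 0 h, 22.4 and 22.1 at 4 h and 13.1 and 13.9 at 8 h in QKI7-△KH. For WWTR1, sgQKI+EV libraries gave 32.9 and 32.9 at 0 h, 21.3 and 20.5 at 4 h and 10.7 and 10.3 at 8 h, and sgNS+EV libraries 38.3 and 34.5 at 0 h, 29.98 and 28.2 at 4 h and 11.5 and 10.5 at 8 h. TAZ mRNA thus kept less than YAP mRNA in each genotype, 31.9% against 43.1% in sgQKI+EV and 30.2% against 49.4% in sgNS+EV. TEAD1 (chromosome 11, 12674591 to 12944483) had signals of 88.8 and 84.5 at 0 h, 60.8 and 54.4 at 4 h and 27.2 and 26.997 at 8 h in QKI7-WT, against 108 and 102 at 0 h, 54.96 and 54.3 at 4 h and 34.3 and 36.7 at 8 h in QKI7-△KH. For TEAD1, sgQKI+EV libraries gave 92.5 and 90.6 at 0 h, 48.7 and 43.03 at 4 h and 24.6 and 24.8 at 8 h, and sgNS+EV libraries 100.4 and 97.7 at 0 h, 59.4 and 57.8 at 4 h and 29.1 and 30.2 at 8 h. It kept 26.9% in sgQKI+EV and 29.9% in sgNS+EV, and VGLL4, which competes with YAP for TEAD, kept 21.1% in sgQKI+EV and 27.6% in sgNS+EV. TEAD2, TEAD3 and TEAD4 kept 52.4% to 61.5% in sgQKI+EV and 59.5% to 68.5% in sgNS+EV.

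**Figure D2:**
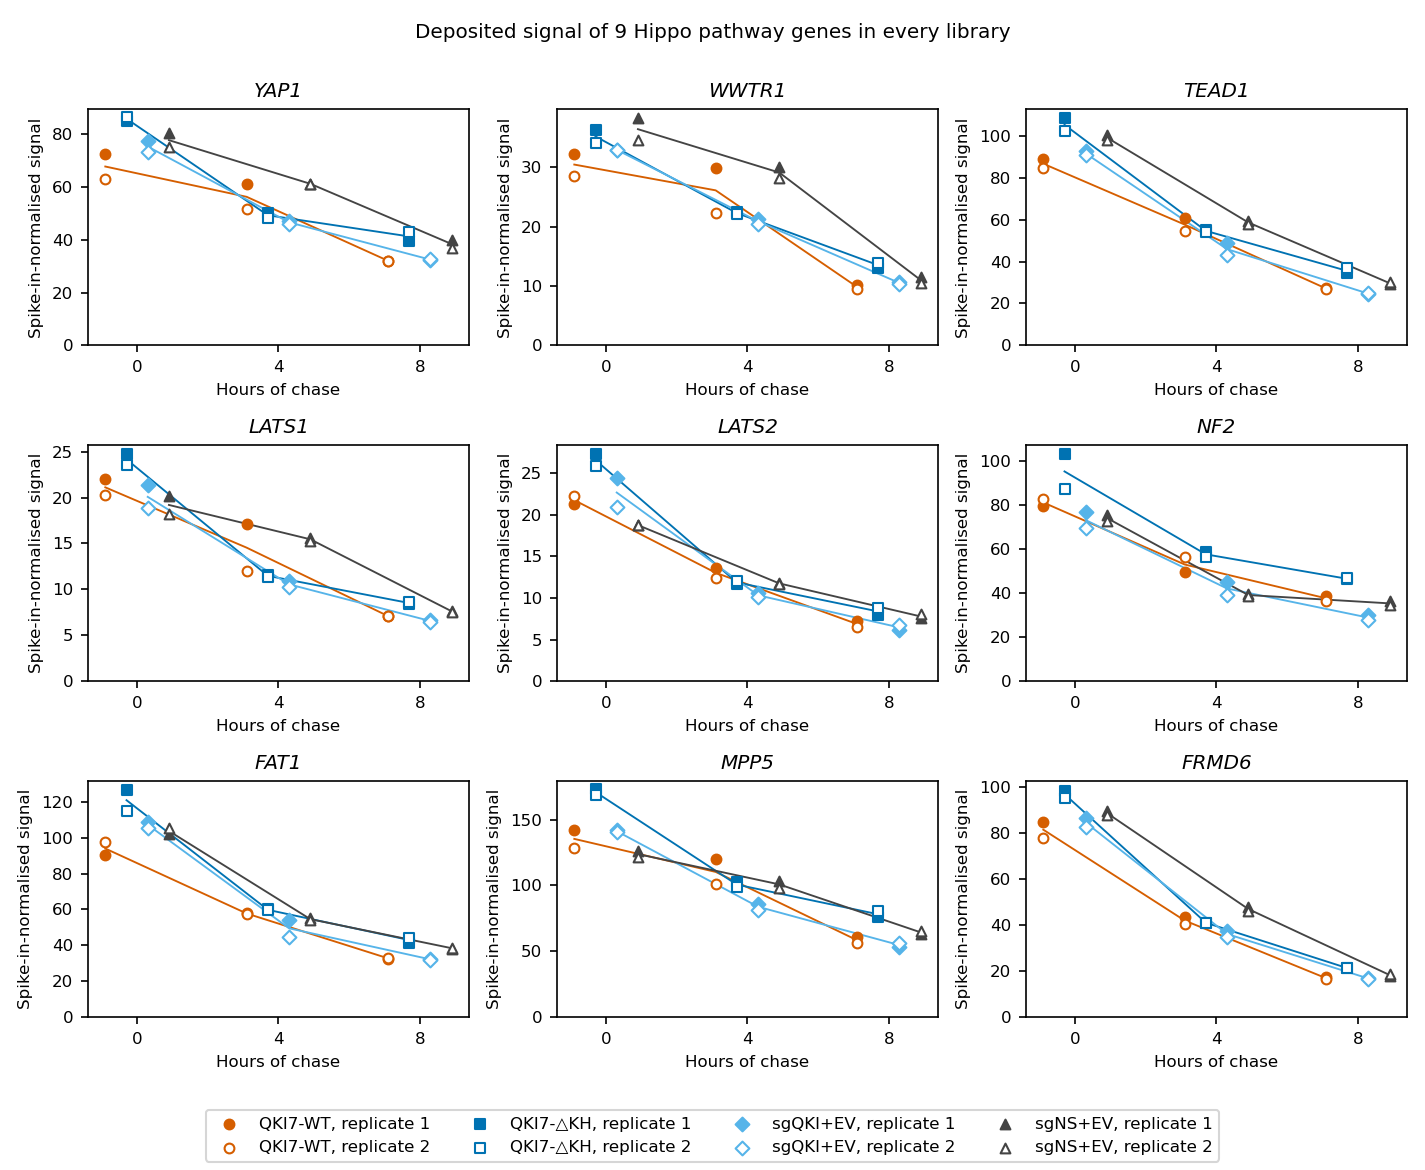
Spike-in-normalised signal (y axis, linear from 0) of 9 Hippo pathway genes at 0, 4 and 8 h of chase (x axis; genotypes are offset sideways at each time). Filled and open symbols are replicates 1 and 2 and lines join group means; YAP1, TEAD1, FRMD6, FAT1 and MPP5 are lower in QKI7-WT than in QKI7-△KH at 0 h and at 8 h, and in LATS1 and WWTR1 the QKI7-WT replicates differ at 4 h.

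The remaining groups held slowly and quickly lost members. In the STRIPAK complex, a PP2A assembly that removes phosphate from MST kinases, the scaffold PPP2R1A and the catalytic subunits PPP2CA and PPP2CB kept 57.2%, 54.4% and 51.5% in sgQKI+EV and 65.6%, 63.9% and 62.4% in sgNS+EV. The striatins STRN, STRN3 and STRN4 kept 30.4%, 31.5% and 46.2% in sgQKI+EV and 35.4%, 36.8% and 55.2% in sgNS+EV. The casein kinases CSNK1D and CSNK1E and the ubiquitin ligase subunit BTRC, which act in YAP degradation, kept 40.8% to 49.1% in sgQKI+EV and 49.0% to 57.7% in sgNS+EV. The 6 YAP and LATS binders (AMOT, AMOTL1, PTPN14, LIMD1, AJUBA and WTIP) kept 32.6% to 56.1% in sgQKI+EV and 40.8% to 60.6% in sgNS+EV. The 5 polarity genes (DLG1, SCRIB, MPP5, PARD3 and PRKCI) kept 38.7% to 55.04% in sgQKI+EV and 48.4% to 62.1% in sgNS+EV.

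The unequal loss of close relatives can be tested within each library, because a ratio of 2 genes depends little on how the library was scaled. For 22 pairs of paralogs the change of the log2 ratio from 0 h to 8 h was averaged over the 4 genotypes. It was tested by an exact two-sided permutation of times within genotype, whose smallest p is 0.00154. The pairs were chosen after the values were seen. After adjustment over the 22 pairs, 19 passed. No pairs of unrelated genes were tested, so the share of such pairs that would pass is unknown. Changes as small as 0.05 passed, in CSNK1D against CSNK1E and PPP2CA against PPP2CB. TEAD2 against TEAD3, TEAD2 against TEAD4 and TAOK2 against TAOK3 passed with 3 of 4 genotypes in the same direction. The TAOK1 to TAOK3 ratio changed by −1.51 ± 0.14 (SD over 4 genotypes) and the TAOK1 to TAOK2 ratio by −1.39 ± 0.05 (SD over 4 genotypes), both lower at 8 h in 4 of 4 genotypes (permutation test, adjusted p = 0.00261). TEAD1 was lower at 8 h against each relative, with a change of −1.03 ± 0.16 (SD over 4 genotypes) to TEAD2, −0.93 to TEAD4 and −0.89 to TEAD3, again in 4 of 4 genotypes with the same adjusted p. The MAP4K3 ratio changed by −0.999 to MAP4K4 and −0.83 to MAP4K5, that of MOB1B by −0.90 to MOB1A, those of STRN and STRN3 by −0.56 and −0.58 to STRN4, and that of WWTR1 by −0.44 to YAP1 (adjusted p = 0.00261 for each). STK3 changed by 0.43 against STK4 and AMOT by 0.44 against AMOTL1. Signals over all libraries were low in AMOT (3.31 to 8.19), TAOK3 (3.89 to 8.56) and STK3 (6.73 to 17.8). The ratios use log2 of the value plus 1, which understates the falls of these genes and so widens their ratio changes to AMOTL1, TAOK1 and STK4. LATS1 against LATS2 (0.09, adjusted p = 0.0798 by the permutation test), TEAD3 against TEAD4 and STRN against STRN3 did not pass. A ratio does not remove a trend with transcript GC content. The GC slopes of all libraries were negative at 0 h and positive at 8 h, as given below. TAOK1, TEAD1, MAP4K3 and MOB1B had a lower GC content than their relatives here (39.5% in TAOK1 and 61.6% in TAOK2). The gap varied between pairs, and MAP4K3 (39.7%) and MAP4K5 (39.8%) were nearly equal. STK3 and AMOT were lost less than STK4 and AMOTL1 at a lower GC content. The pair test was also rerun with the GC correction described below. Only counts of passing pairs were taken from it, and their range over the alternatives is given at the end. How much of each ratio change follows GC content was not tested.

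**Figure D3:**
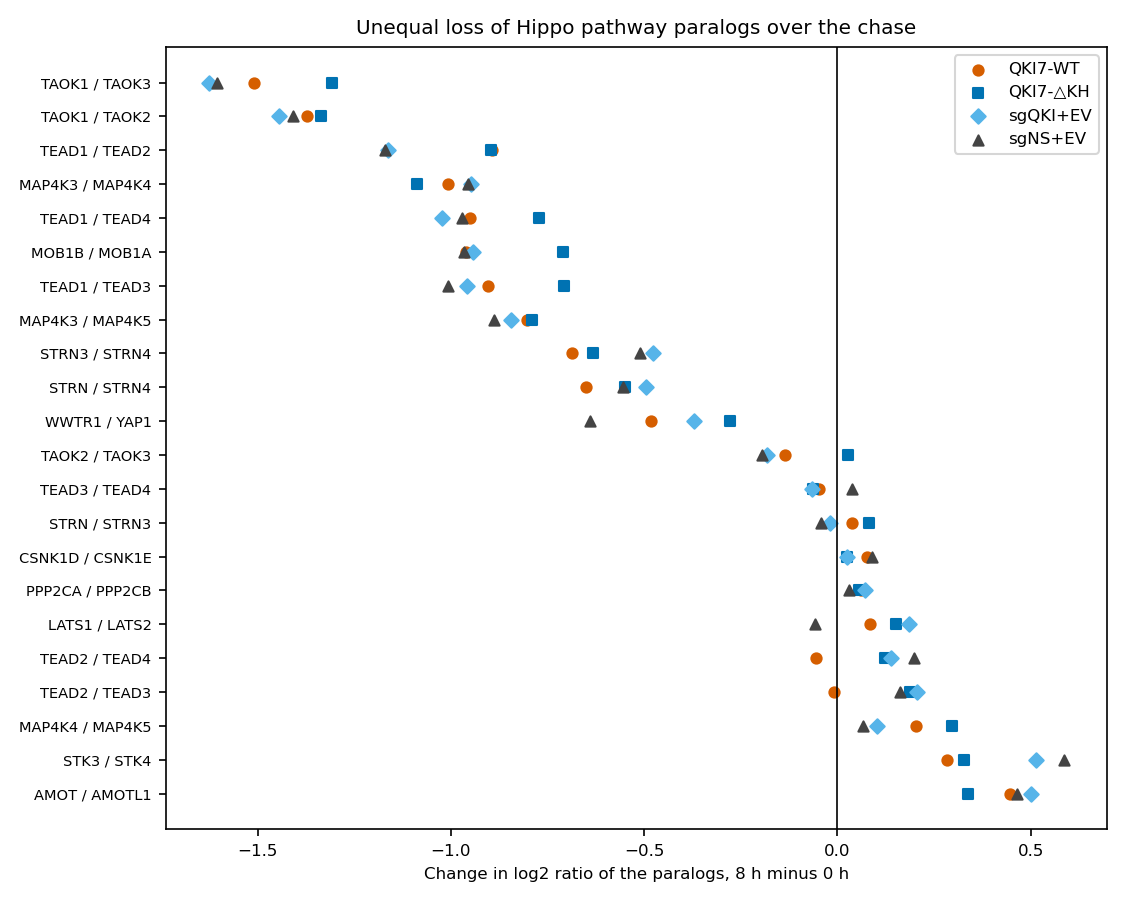
Change of the log2 ratio of 2 paralogs from 0 h to 8 h (x axis) for 22 pairs (rows, first gene over second), in 4 genotypes (symbols; each is the mean of 2 libraries at 8 h minus the mean of 2 at 0 h). Pairs led by TAOK1, TEAD1, MAP4K3 and MOB1B lie left of 0 in every genotype, and STK3 / STK4 and AMOT / AMOTL1 lie right of it.

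In sgNS+EV the loss was spread unevenly over the chase. From 0 h to 4 h 39 members fell (59.8% of all genes fell), and from 4 h to 8 h 37 fell and 1 rose, against 64.9% and 1.46% of all genes. SCRIB, a polarity scaffold, fell by 1.53 on the log2 scale in the first interval and rose by 0.50 (SE 0.11, adjusted p = 0.000488) in the second: its sgNS+EV signals were 68.9 and 71.6 at 0 h, 22.5 and 24.8 at 4 h and 32.6 and 35.4 at 8 h. DCHS1 had the largest first-interval change, −1.60, and after SCRIB came VGLL4 (−1.08), FAT1 (−0.91), NF2 (−0.90) and FRMD6 (−0.90). MOB1B (−1.55), WWTR1 (−1.33), FRMD6 (−1.31), TAOK1 (−1.26) and MAP4K3 (−1.23) changed most in the second. The sgNS+EV slope of signal on GC content, defined below, was −0.07 and −0.03 at 0 h. It was −0.17 and −0.12 at 4 h and 0.07 and 0.12 at 8 h. GC content was 66.5% in SCRIB and 62.0% in DCHS1, against 34.3% in MOB1B and 39.5% in TAOK1. FRMD6 (41.5%) was named in both intervals. The part of GC content in this order was not tested. PRKCI and STK3 were at 99.8% and 105% of their 0 h mean at 4 h and did not pass. Under quantile normalisation 11 of the 39 early falls, YAP1, WWTR1 and LATS1 among them, lay above 0.

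Before the chase none of the 46 members passed for sgQKI+EV against sgNS+EV at 0 h by limma (1.55% of all genes did), and 5 had an unadjusted p below 0.05, as did 14.1% of all genes. The median difference was −0.02 for members and −0.06 for all genes. LATS2 had the largest value, 0.26 (SE 0.09, adjusted p = 0.17), with a 95% interval of 0.07 to 0.45, followed by MPP5 (0.19) above 0 and by MAP4K4 (−0.21), TEAD2 (−0.21) and CSNK1E (−0.21) below it. All 7 effector genes lay below 0, as did 68.5% of all genes, between −0.21 and −0.04, and none passed; YAP1 was at −0.04, with an interval of −0.21 to 0.12. Fitted on those 2 groups alone 4 members passed, as did 4 with quantile normalisation and 2 with library totals. No share of all genes under these settings is set beside these counts.

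Cells with intact QKI7 had less of 5 members than cells with the KH-deleted form. At 0 h FAT1, YAP1, MPP5, TEAD1 and FRMD6 were lower in QKI7-WT than in QKI7-△KH and none was higher (3.71% of all genes were lower). FAT1 (chromosome 4, 186587783 to 186726722) had signals of 90.1 and 97.7 at 0 h, 58.1 and 57.3 at 4 h and 32.6 and 32.99 at 8 h in QKI7-WT, against 127 and 115 at 0 h, 60.1 and 59.4 at 4 h and 41.5 and 44.4 at 8 h in QKI7-△KH. For FAT1, sgQKI+EV libraries gave 109 and 106 at 0 h, 54.2 and 44.8 at 4 h and 32.6 and 31.8 at 8 h, and sgNS+EV libraries 102 and 105 at 0 h, 55.2 and 53.998 at 4 h and 38.1 and 38.8 at 8 h. The 0 h difference of FAT1 was −0.36 (SE 0.08, adjusted p = 0.0151). MPP5 (PALS1, a Crumbs-complex polarity scaffold; chromosome 14, 67241109 to 67335819) had signals of 142 and 129 at 0 h, 119.8 and 100.7 at 4 h and 60.7 and 56.2 at 8 h in QKI7-WT, against 173 and 169 at 0 h, 102 and 98.8 at 4 h and 75.8 and 80.4 at 8 h in QKI7-△KH. For MPP5, sgQKI+EV libraries gave 142 and 140.5 at 0 h, 85.9 and 81.7 at 4 h and 53.3 and 56.04 at 8 h, and sgNS+EV libraries 126 and 122 at 0 h, 103 and 98.04 at 4 h and 63.5 and 65.3 at 8 h. In both genes the QKI7-WT libraries lay below the QKI7-△KH libraries at 0 h and at 8 h, and the 0 h difference of MPP5 was −0.34 (adjusted p = 0.0209). For YAP1 the difference was −0.34 (limma, adjusted p = 0.026), for TEAD1 −0.28 (0.0372) and for FRMD6 −0.25 (0.0464). The QKI7-WT and QKI7-△KH libraries did not overlap in any of the 5. This is no further support, because the 5 were picked on these same values. The share of all genes without overlap was not counted. The shift was general: 45 of 46 members and 90.9% of all genes lay below 0, with medians of −0.20 and −0.15. WWTR1 (−0.20, adjusted p = 0.207), LATS1 (−0.19), LATS2 (−0.28) and NF2 (−0.22) did not pass.

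The same 5 genes were lower again after the chase, in other libraries of the same genotypes. Both times were tested in the same fit, with a shared variance per gene, so this is not an independent repeat. At 8 h 8 members were lower in QKI7-WT than in QKI7-△KH and none was higher (4.84% of all genes were lower), namely WWTR1 (−0.42, SE 0.10, adjusted p = 0.0238), MPP5 (−0.41), FAT1 (−0.38), TEAD1 (−0.38), YAP1 (−0.35), WTIP (−0.35), AMOTL1 (−0.33) and FRMD6 (−0.32), with adjusted p between 0.00391 and 0.0448. All 5 members of the 0 h list (100%) were in the 8 h list and made up 62.5% of it; over all genes, 259 of the 465 lower at 0 h were lower at 8 h (55.7%), which is 42.7% of the 607 lower at 8 h. These calls rest on the spike-in scale. With library totals none of the 5 passed at 0 h and 5 members passed at 8 h, FAT1 among them; with quantile normalisation FAT1 was the 1 member that passed at each time. Leaving out 1 library left 0 to 3 calls at 0 h (0 without QKI7-△KH replicate 1, 1 without QKI7-△KH replicate 2 or QKI7-WT replicate 2) and 0 to 5 at 8 h (0 without QKI7-WT replicate 2 or QKI7-△KH replicate 2, 3 without QKI7-WT replicate 1, 5 without QKI7-△KH replicate 1). With the share of each library's signal that follows transcript GC content taken out, 15 members were lower at 0 h and 19 at 8 h, all of the first 5 and 8 included. The share of all genes called under that correction is not given here, so these counts cannot be read as a stronger result for the members. The mesenchymal marker CDH2 was lower in QKI7-WT at 8 h as well (−0.26), 1 of 5 such markers, and its part in the result was not tested.

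**Figure D4:**
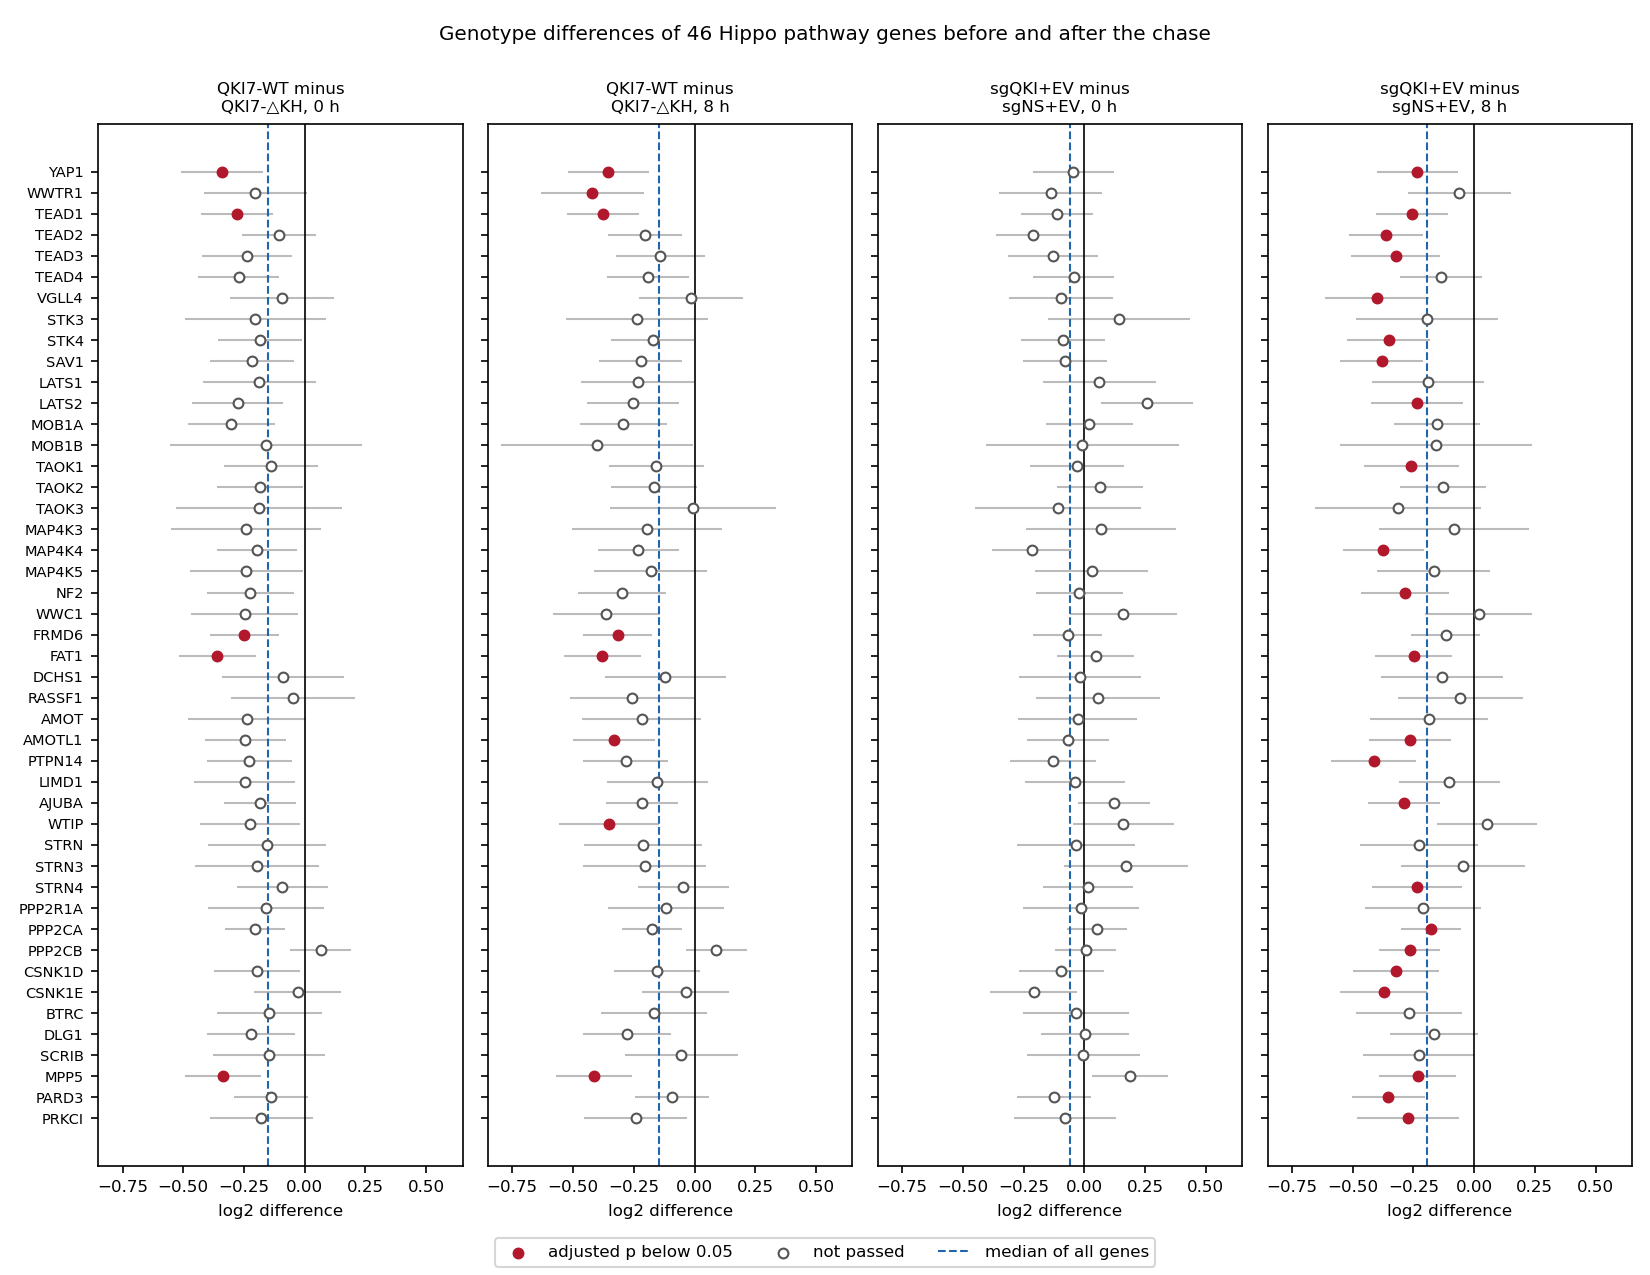
Log2 difference (x axis) with 95% interval (bars) of 46 Hippo pathway genes (rows) between QKI7-WT and QKI7-△KH and between sgQKI+EV and sgNS+EV, at 0 h and at 8 h. Filled points passed an adjusted p of 0.05, and dashed lines are the medians of all genes; YAP1, TEAD1, FRMD6, FAT1 and MPP5 are filled in both QKI7-WT panels, no gene in the 0 h sgQKI+EV panel, and 23 in the 8 h one.

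Cells with the KH-deleted form were also set against QKI-targeted cells with an empty vector. At 0 h 11 members were higher in QKI7-△KH than in sgQKI+EV and none was lower (12.6% of all genes were higher), with all 46 members above 0 and medians of 0.20 for members and 0.19 for all genes. NF2 had signals of 79.8 and 82.7 at 0 h, 49.6 and 56.6 at 4 h and 38.8 and 36.6 at 8 h in QKI7-WT, against 103 and 87.2 at 0 h, 58.9 and 56.4 at 4 h and 46.4 and 46.7 at 8 h in QKI7-△KH. For NF2, sgQKI+EV libraries gave 77.01 and 69.4 at 0 h, 45.1 and 39.2 at 4 h and 29.9 and 27.9 at 8 h, and sgNS+EV libraries 75.5 and 72.8 at 0 h, 39.8 and 38.5 at 4 h and 36.3 and 34.5 at 8 h. The 0 h difference of NF2 between QKI7-△KH and sgQKI+EV was 0.37 (SE 0.09, adjusted p = 0.0179). TEAD4 had signals of 69.2 and 76.4 at 0 h, 64.98 and 74.3 at 4 h and 46.5 and 43.1 at 8 h in QKI7-WT, against 92.5 and 83.7 at 0 h, 71.2 and 73.4 at 4 h and 49.7 and 52.8 at 8 h in QKI7-△KH. For TEAD4, sgQKI+EV libraries gave 69.98 and 70.1 at 0 h, 65.9 and 56.9 at 4 h and 38.6 and 39.6 at 8 h, and sgNS+EV libraries 71.7 and 72.8 at 0 h, 54.1 and 53.5 at 4 h and 41.9 and 44.1 at 8 h. TEAD4 differed by 0.33 between QKI7-△KH and sgQKI+EV at 0 h. WWC1 had signals of 18.5 and 18.1 at 0 h, 14.3 and 11.6 at 4 h and 8.35 and 7.35 at 8 h in QKI7-WT, against 22.7 and 21.1 at 0 h, 13.1 and 12.2 at 4 h and 9.42 and 11.4 at 8 h in QKI7-△KH. For WWC1, sgQKI+EV libraries gave 17.1 and 16.4 at 0 h, 11.1 and 9.71 at 4 h and 7.79 and 7.26 at 8 h, and sgNS+EV libraries 15.1 and 14.6 at 0 h, 10.96 and 10.3 at 4 h and 7.79 and 7.06 at 8 h. WWC1 differed by 0.37 in the same comparison. SAV1 had signals of 71.6 and 68.8 at 0 h, 57.8 and 50.2 at 4 h and 27.7 and 26.1 at 8 h in QKI7-WT, against 82.2 and 81.3 at 0 h, 51.9 and 50.2 at 4 h and 30.4 and 32.7 at 8 h in QKI7-△KH. For SAV1, sgQKI+EV libraries gave 67.98 and 66.8 at 0 h, 45.1 and 37.8 at 4 h and 23.9 and 23.9 at 8 h, and sgNS+EV libraries 73.7 and 68.99 at 0 h, 55.4 and 51.2 at 4 h and 30.3 and 32.5 at 8 h. SAV1 was above sgQKI+EV by 0.28 at 0 h. DLG1 (a polarity scaffold) had signals of 57.2 and 54.04 at 0 h, 55.04 and 43.7 at 4 h and 31.3 and 31.5 at 8 h in QKI7-WT, against 65.4 and 64.5 at 0 h, 44.4 and 43.2 at 4 h and 37.7 and 38.8 at 8 h in QKI7-△KH. For DLG1, sgQKI+EV libraries gave 53.4 and 53.9 at 0 h, 38.7 and 37.6 at 4 h and 29.1 and 29.9 at 8 h, and sgNS+EV libraries 55.9 and 51.2 at 0 h, 51.8 and 44.3 at 4 h and 33.1 and 33.5 at 8 h. MPP5 (0.27), DLG1 (0.27), AJUBA (0.27) and AMOTL1 (0.25) followed, and PARD3 (0.24), PPP2CA (0.23) and PPP2CB (0.20) also passed. PPP2CA (a catalytic subunit of PP2A) had signals of 178 and 172 at 0 h, 174 and 161 at 4 h and 106 and 103 at 8 h in QKI7-WT, against 205 and 198 at 0 h, 149.8 and 149 at 4 h and 117 and 119 at 8 h in QKI7-△KH. For PPP2CA, sgQKI+EV libraries gave 176 and 168 at 0 h, 138 and 134 at 4 h and 92.9 and 94.1 at 8 h, and sgNS+EV libraries 163 and 168 at 0 h, 143 and 139 at 4 h and 108 and 104 at 8 h. PPP2CA kept more of its signal to 8 h than the median member in each genotype. PPP2CB (the other catalytic subunit) had signals of 111 and 107 at 0 h, 95.6 and 94.5 at 4 h and 63.1 and 61.1 at 8 h in QKI7-WT, against 106 and 102 at 0 h, 72.04 and 70.3 at 4 h and 57.1 and 59.6 at 8 h in QKI7-△KH. For PPP2CB, sgQKI+EV libraries gave 91.6 and 88.7 at 0 h, 61.2 and 63.5 at 4 h and 44.7 and 48.2 at 8 h, and sgNS+EV libraries 90.3 and 89.2 at 0 h, 72.2 and 74.04 at 4 h and 56.4 and 55.6 at 8 h. PPP2CB was above sgQKI+EV in both add-back genotypes at 0 h. The mesenchymal marker CDH2 was also higher in QKI7-△KH than in sgQKI+EV, by 0.30, the 1 of 5 such markers to pass; its part in the result was not tested. No member passed for QKI7-WT against sgQKI+EV by limma (0.0877% of all genes did; 2 members and 4.75% of all genes had an unadjusted p below 0.05). The nearest were PPP2CB (0.27, SE 0.06, adjusted p = 0.107) and FAT1 (−0.19); YAP1 differed by −0.15, with an interval of −0.32 to 0.01. These comparisons share control libraries. Neither other scaling left a call for QKI7-△KH, PPP2CB then lay below 0 with library totals, and leaving out 1 library gave 0 calls without sgQKI+EV replicate 2 or QKI7-△KH replicate 1, 1 without sgQKI+EV replicate 1 and 6 without QKI7-△KH replicate 2.

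After 8 h the QKI-targeted cells had less of 23 members than control cells and more of none (34% of all genes were lower). The largest differences were in PTPN14, a phosphatase that binds YAP (−0.41, SE 0.08, adjusted p = 0.00115), VGLL4 (−0.40), SAV1 (−0.38), MAP4K4 (−0.37), CSNK1E (−0.37), TEAD2 (−0.36), PARD3 (−0.35) and STK4 (−0.35). PARD3 (a polarity scaffold) had signals of 64.99 and 70.7 at 0 h, 63.2 and 59.01 at 4 h and 37.5 and 34.8 at 8 h in QKI7-WT, against 78.8 and 70.8 at 0 h, 55.7 and 56.4 at 4 h and 37.7 and 39.5 at 8 h in QKI7-△KH. For PARD3, sgQKI+EV libraries gave 64.5 and 61.4 at 0 h, 49.5 and 45.9 at 4 h and 31.7 and 30.99 at 8 h, and sgNS+EV libraries 66.4 and 71.1 at 0 h, 54.97 and 52.2 at 4 h and 40.5 and 40.1 at 8 h. At 8 h the sgQKI+EV and sgNS+EV libraries overlapped neither in PARD3 nor in SAV1, which were named because they passed on these same values. YAP1 (−0.23), TEAD1 (−0.26), LATS2 (−0.24) and NF2 (−0.28) were lower too, while WWTR1 (−0.06) and LATS1 (−0.19) did not pass. The median was −0.23 over members and −0.20 over all genes, and no member passed with library totals and 2 with quantile normalisation, where YAP1, FAT1, MPP5, STRN4, PPP2CA and PPP2CB lay above 0. Leaving out 1 library gave 8 (without sgNS+EV replicate 2), 10, 12 or 13 calls. Of 5 mesenchymal markers COL1A1 (−0.60) and CDH2 (−0.17) were lower too, and the sum of the 5 ran from 3241 to 3352 in sgQKI+EV and from 3786 to 3988 in sgNS+EV. Of the 2 epithelial markers measured CLDN4 was lower (−0.40), and their sum was 6.96 to 7.08 in sgQKI+EV and 7.18 to 8.28 in sgNS+EV. The part of these markers in the result was not tested.

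Whether a transcript was lost faster in 1 genotype than in another was tested as the difference of the 2 changes from 0 h to 8 h, where a negative value is a larger loss in the genotype named first. No member passed for sgQKI+EV against sgNS+EV by limma (0.677% of all genes did). An unadjusted p below 0.05 was found in 11 members and in 17% of all genes. 45 of 46 members and 79.03% of all genes lay below 0, around a median of −0.20 against −0.14 for all genes. The 3 members nearest the threshold were AJUBA, a LIM protein that binds LATS (−0.41, SE 0.10, adjusted p = 0.0595), MPP5 (−0.42, 0.0649) and LATS2 (−0.49, 0.0719). AJUBA had signals of 67.5 and 69.9 at 0 h, 42.6 and 48.3 at 4 h and 34.4 and 31.8 at 8 h in QKI7-WT, against 79.9 and 76.6 at 0 h, 42.6 and 46.5 at 4 h and 38.3 and 39.05 at 8 h in QKI7-△KH. For AJUBA, sgQKI+EV libraries gave 66.1 and 63.7 at 0 h, 38.96 and 37.1 at 4 h and 27.6 and 28.2 at 8 h, and sgNS+EV libraries 60.7 and 58.4 at 0 h, 39.2 and 40.996 at 4 h and 33.8 and 34.8 at 8 h. The sgQKI+EV libraries of AJUBA lay above those of sgNS+EV at 0 h and below them at 8 h. The intervals were −0.43 to 0.05 for YAP1, −0.22 to 0.38 for WWTR1, −0.35 to 0.07 for TEAD1, −0.58 to 0.08 for LATS1 and −0.52 to −0.01 for NF2. From the compared groups alone 7 members passed, and 3 with the GC correction. The share of all genes that passed under these settings is not given here, so these counts have no background.

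The add-back comparisons gave no decay call in any member over 8 h. For QKI7-WT against QKI7-△KH none passed by limma and none had an unadjusted p below 0.05 (0% of all genes passed, and 0.956% had such a p); the values ran from −0.24 to 0.18, and the interval for YAP1 was −0.25 to 0.22 and for WWTR1 −0.52 to 0.08. For QKI7-WT against sgQKI+EV (0% of all genes) and QKI7-△KH against sgQKI+EV (0%) the member medians were 0.11 and 0.12, against 0.07 for all genes in both, and 1 and 4 members had an unadjusted p below 0.05, beside 2.74% and 2.57% of all genes. TEAD1 had the largest value of the last comparison, 0.31 with an interval of 0.10 to 0.52 and an adjusted p of 0.997.

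At 4 h the genotypes differed in another way, and the differences varied with base composition. The 4 h comparisons were chosen after the values were seen. In sgQKI+EV against sgNS+EV 25 members were lower and 4 higher, against 34% and 6.74% of all genes. MOB1B had 9.41 and 10.6 for the sgQKI+EV libraries, 20.4 and 10.9 in QKI7-WT, 11.4 and 10.01 in QKI7-△KH and 21.2 and 19.5 in sgNS+EV, so that replicate 1 of QKI7-WT lay with the controls and replicate 2 with the other QKI-guide cells. The sgQKI+EV difference was −0.96 (SE 0.19, adjusted p = 0.000891). STRN (−0.62), TAOK1 (−0.61), MAP4K3 (−0.61), LATS1 (−0.51), PRKCI (−0.51), STK4 (−0.47) and TAOK3 (−0.47) were lower as well, and SCRIB (0.51), PPP2R1A (0.42), WTIP (0.33) and STRN4 (0.25) higher. With the GC correction 22 passed and STRN4 turned to −0.052, and 16 passed without sgNS+EV replicate 1. Of 5 mesenchymal markers RUNX2 was lower (−0.62) and COL1A1 higher (0.29), and their part was not tested. SCRIB had 36.6 and 31.6 for the sgQKI+EV libraries, 31.8 and 42.7 in QKI7-WT, 38.5 and 39.1 in QKI7-△KH and 22.5 and 24.8 in sgNS+EV, where both libraries were the lowest.

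The transcript of MOB1B has the lowest GC content of the 46, 34.3%, and that of SCRIB the highest, 66.5%. Across the 46 members the 4 h difference between sgQKI+EV and sgNS+EV had a Pearson r of 0.87 with GC content (0.71 over 11305 genes), and the difference between the 2 QKI7-WT libraries at 4 h an r of −0.82 (−0.63); at 8 h the r for sgQKI+EV against sgNS+EV was −0.06 (−0.04). These are correlations across genes that share libraries, and genes are not independent replicates. The deviation of all genes from their own mean was regressed on GC content in each library. At 4 h that slope, in log2 units per 10 percentage points of GC, was 0.11 and 0.06 for the sgQKI+EV libraries, −0.14 and 0.08 in QKI7-WT, 0.04 and 0.08 in QKI7-△KH and −0.17 and −0.12 in sgNS+EV. Replicate 1 of QKI7-WT and both sgNS+EV libraries thus had negative slopes at 4 h and the other 5 positive ones, while all 8 libraries at 0 h were negative (−0.15 to −0.01) and all 8 at 8 h positive (0.06 to 0.12). The part of GC content in the 4 h results was not tested.

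**Figure D5:**
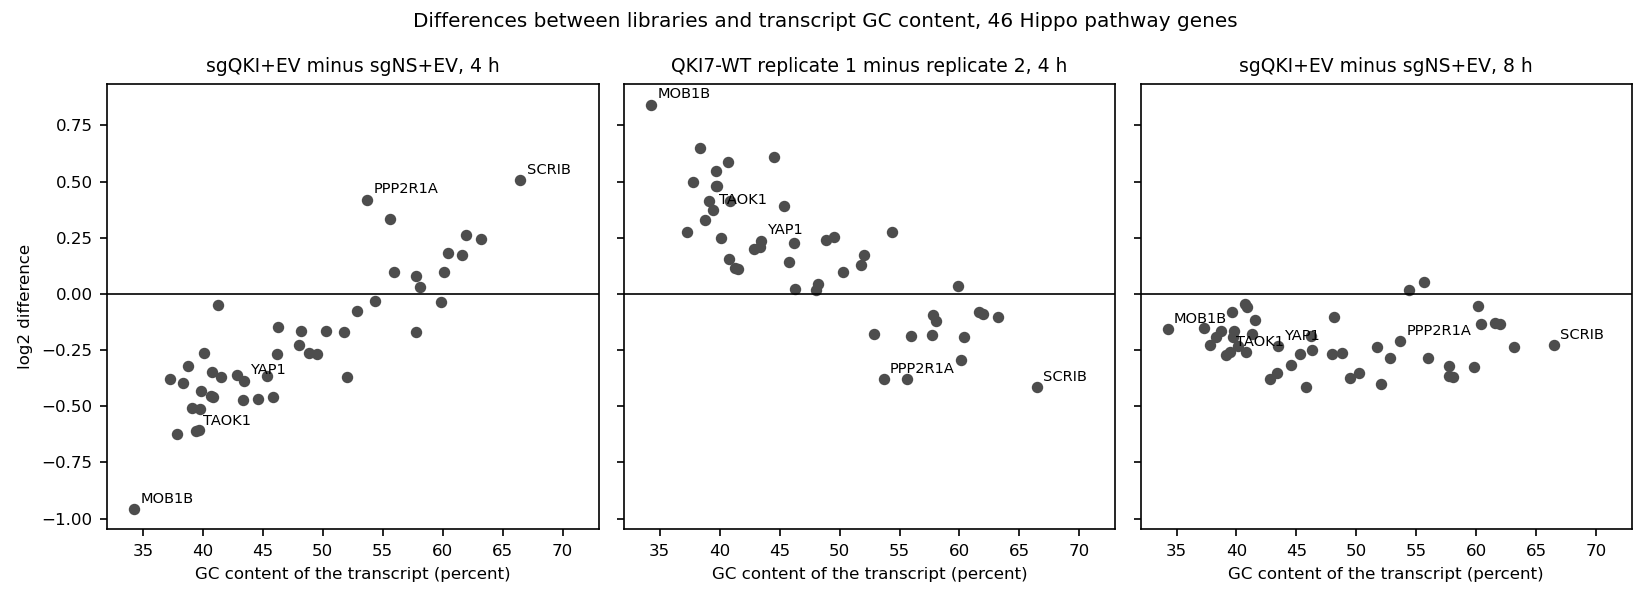
Log2 difference (y axis) of 46 Hippo pathway genes against the GC content of 1 GENCODE 29 transcript per gene (x axis), for sgQKI+EV minus sgNS+EV at 4 h, for the 2 QKI7-WT libraries at 4 h, and for sgQKI+EV minus sgNS+EV at 8 h. The first panel rises with GC (r = 0.87), the second falls (r = −0.82) and the third is flat (r = −0.06).

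Over 0 to 4 h, 11 members were lost more and SCRIB less in sgQKI+EV than in sgNS+EV (8.89% and 1.8% of all genes), led by MOB1B (−0.95, SE 0.27, adjusted p = 0.0371), MAP4K3 (−0.67), STRN3 (−0.63), STRN (−0.59), TAOK1 (−0.58), LATS1 (−0.57), MPP5 (−0.45) and LATS2 (−0.43). When the part of each library that follows GC was taken out, none of the 12 passed, and none passed either when 1 of 6 of the 8 libraries was left out (7 were left without sgNS+EV 0 h replicate 1 and 4 without sgQKI+EV 0 h replicate 2), while 27 passed with library totals. For QKI7-WT against QKI7-△KH 15 members were lost less by 4 h in QKI7-WT (16% of all genes), such as TAOK1 (0.54, SE 0.13, adjusted p = 0.0288), MOB1A (0.53), YAP1 (0.52), MAP4K5 (0.50), LATS1 (0.48), MPP5 (0.46), PRKCI (0.45) and STK4 (0.44). That count was 24 with the GC correction, 0 with library totals, 0 without QKI7-WT 4 h replicate 1, 30 without replicate 2 of that group, 14 without QKI7-WT 0 h replicate 1 and 0 without any 1 of the other 5 libraries. The mesenchymal markers CDH2 (0.35) and SPARC (0.40), 2 of 5, were lost less as well, and their part was not tested. At 4 h itself PPP2CB (95.6 and 94.5 in QKI7-WT, 72.04 and 70.3 in QKI7-△KH, 61.2 and 63.5 in sgQKI+EV) and TAOK1 were higher in QKI7-WT than in QKI7-△KH, by 0.41 and 0.40 (0.821% of all genes were higher). 1 member passed there without QKI7-WT replicate 1 and 23 without replicate 2. Against sgQKI+EV 29 members were higher in QKI7-WT at 4 h (37.7% of all genes were higher), led by PPP2CB (0.60, SE 0.06, adjusted p = 8.74e-06), TAOK1 (0.56) and STK4 (0.54), with 12 without QKI7-WT replicate 1, 10 without sgQKI+EV replicate 2, 2 with quantile normalisation and none when those 2 groups were fitted alone. With library totals 3 passed and FRMD6, FAT1 and AJUBA lay below 0, and FRMD6 did so with quantile normalisation too. 3 of 5 mesenchymal markers, CDH2 (0.40), SPARC (0.38) and VIM (0.24), were higher there as well, and their part in the result was not tested. No member passed for the 0 to 4 h loss of QKI7-WT against sgQKI+EV by limma (0.00797% of all genes did; 23 members and 25.6% of all genes had an unadjusted p below 0.05). None passed without QKI7-WT 4 h replicate 1 either, while 28 passed without replicate 2 of that group, 11 without sgQKI+EV 4 h replicate 1 and 4 without QKI7-WT 0 h replicate 1.

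Other genes of the pathway fell over the chase as well. Of 57 further Hippo genes listed 45 were measured and, at 8 h against 0 h, 45 fell in sgQKI+EV and 44 in sgNS+EV (90.5% and 88.2% of all genes), led in sgQKI+EV by FJX1 (−3.58), HEG1 (−2.24), AMOTL2 (−2.21) and RASSF5 (−2.04). In QKI7-WT against QKI7-△KH at 0 h 4 of the 45 were lower, PARD6G (−0.43), PPP2R1B (−0.34), AMOTL2 (−0.30) and HEG1 (−0.26), and none was higher (3.71% of all genes were lower). 1 of the 4 passed with quantile normalisation and none with library totals, and leaving out 1 library gave 0 calls, or 1 without QKI7-△KH replicate 2. For the 8 h decay difference between sgQKI+EV and sgNS+EV 2 of the 45 passed, AMOTL2 (−0.72, SE 0.10, adjusted p = 0.00335) and PPP2R1B (−0.58), both lost more in sgQKI+EV (0.677% of all genes passed). 1 passed under each other scaling, and 0 or 1 with 1 library left out, 0 without sgNS+EV 8 h replicate 2. Of 22 YAP and TAZ target genes listed 19 were measured, among them the members LATS2 and PTPN14 and the further Hippo gene AMOTL2. For the same 8 h decay difference 2 of the 19, AMOTL2 included, were lost more in sgQKI+EV than in sgNS+EV (0.677% of all genes passed). All 19 fell over 8 h in each genotype, with a median of −1.73 in sgQKI+EV and −1.41 in sgNS+EV, led by CYR61 (−5.45 in sgQKI+EV and −5.23 in sgNS+EV), CTGF (−5.37 in sgQKI+EV and −4.93 in sgNS+EV) and ANKRD1 (−4.10 in sgQKI+EV and −3.49 in sgNS+EV). At 0 h 6 of the 19 were lower in QKI7-WT than in QKI7-△KH, such as MYOF (−0.42), ANKRD1 (−0.37), CTGF (−0.34) and CRIM1 (−0.33), beside a median of −0.26, against −0.15 for all genes, of which 3.71% were lower. 1 of the 6 passed with either other scaling, and 0 without QKI7-WT replicate 1 or QKI7-△KH replicate 1, 3 without QKI7-WT replicate 2 and 4 without QKI7-△KH replicate 2.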

How the data were processed

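PolyA RNA of 24 U2OS libraries was sequenced after a stranded mRNA preparation, per the labels' protocols. The submitters' processing notes name STAR, RSEM, GRCh38 and GENCODE 29, without roles or tool versions. The authors deposited 1 table of a linear signal normalised to ERCC spike-in RNAs; when the spike-in was added, and the unit before that step, are not given in the sources used here. Of 12585 rows, 38 are spike-ins and were left out; 12547 genes remained, all of which reached a value of 1 in 2 or more libraries, the minimum set. Depth is unknown, so no counting interval can be given. Log2(value + 1), which understates changes of low genes, was fitted with limma 3.58.1 (R 4.3.3; trend) as 12 group means of 2 libraries, with 12 residual degrees of freedom and no block; p-values are two-sided, Benjamini-Hochberg adjusted over 12547 genes, threshold 0.05, in 22 comparisons. Percent left is a ratio of group means. The fit of QKI7-WT against QKI7-△KH at 0 h was tried on simulated data with independent noise for each gene. Deviations shared across a library were not simulated, so the rate of false calls in these data was not tested. GC content and 3′ UTRs came from 1 GENCODE 29 transcript per gene (APPRIS principal, then longest); the GC correction took a cubic in GC out of each library over 11305 genes and also removes real change that follows GC. The members and lists were chosen with earlier results of these data known, and the 4 h comparisons, GC correction and paralog ratios after the values were seen. Named genes are the central members, those that passed at 0 h or in a decay difference with the smallest adjusted p, and the largest changes of each comparison. Under the alternatives, only the largest changes that passed in each comparison are counted as values of named genes. Alternatives were quantile normalisation, library totals without ribosomal RNA, pseudocount 0.1, filters, a replicate block, only the groups compared, and leaving out each library.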

Additional observations from a re-analysis of the deposited data

Results flagged for a closer look

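The change from 0 h to 4 h differed between genotypes, by a test of the difference itself, in 27 gene and comparison pairs. The background is wide: 8.89% of all genes were lost more and 1.8% less in sgQKI+EV than in sgNS+EV, and 16% were lost less in QKI7-WT than in QKI7-△KH. In sgQKI+EV against sgNS+EV the loss was larger in the core kinases STK4 (−0.39), LATS1 (−0.57) and LATS2 (−0.43) and their partners MOB1A (−0.40) and MOB1B (−0.95), in TAOK1 (−0.58) and MAP4K3 (−0.67), in FRMD6 (−0.30), in STRN (−0.59) and STRN3 (−0.63), and in MPP5 (−0.45), and it was smaller in SCRIB (0.51), all as log2 differences of the 2 changes. In QKI7-WT against QKI7-△KH the loss was smaller in YAP1 (0.52), TEAD1 (0.35), STK4 (0.44), LATS1 (0.48), LATS2 (0.40), MOB1A (0.53), TAOK1 (0.54), MAP4K4 (0.33), MAP4K5 (0.50), AMOTL1 (0.37), PPP2CA (0.37), PPP2CB (0.35), DLG1 (0.38), MPP5 (0.46) and PRKCI (0.45). By limma none of the differences in change from 0 h to 8 h passed in these genes. Over all 46 members, flagged or not, 11 had an unadjusted p below 0.05 in sgQKI+EV against sgNS+EV (17% of all genes). In QKI7-WT against QKI7-△KH 0 of the members did (0.956% of all genes). None of the 12 calls in sgQKI+EV against sgNS+EV passed with the GC correction. Of the 15 in QKI7-WT against QKI7-△KH, 0 passed with library totals or quantile normalisation, 0 on the compared groups alone, and 0 without QKI7-WT 4 h replicate 1. Transcript GC content moved with the 4 h values, as given above, and its part in these results was not tested.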

How the results depend on the processing

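Counts of members that passed moved with the scale, the GC correction, the groups fitted and single libraries. Here and above, counts under the alternatives are given without the share of all genes under the same setting. They show how the calls move and not whether members exceed other genes. Under quantile normalisation they were 4 (sgQKI+EV against sgNS+EV, 0 h), 1 (QKI7-WT against QKI7-△KH, 0 h), 1 (QKI7-WT against sgQKI+EV, 0 h), 0 (QKI7-△KH against sgQKI+EV, 0 h), 21 (4 h against 0 h, sgNS+EV), 1 (decay difference to 8 h, sgQKI+EV against sgNS+EV), 2 (sgQKI+EV against sgNS+EV, 8 h), 1 (QKI7-WT against QKI7-△KH, 8 h), 1 (the same at 4 h), 2 (QKI7-WT against sgQKI+EV, 4 h) and 0 (decay difference to 4 h, QKI7-WT against QKI7-△KH). With library totals without ribosomal RNA they were, leaving out the decay difference to 8 h and in the same order, 2, 0, 1, 0, 21, 0, 5, 1, 3 and 0, and 27 for the decay difference to 4 h of sgQKI+EV against sgNS+EV. The median 8 h change of all genes in sgNS+EV was −0.70 as deposited, −0.29 with library totals and 0.05 with quantile normalisation. Some calls outside the largest changes turned sign, such as YAP1 in sgQKI+EV against sgNS+EV at 8 h, which lay above 0 with both scalings.

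With a mean value of at least 5, 1 member passed for the decay difference to 8 h of sgQKI+EV against sgNS+EV. Replicate numbers did not pair the libraries: deviations correlated above 0.1 in 21 of 66 group pairs (−0.42 to 0.48). With a replicate block 13 members passed for QKI7-WT against QKI7-△KH at 8 h and 8 for the decay difference to 4 h of QKI7-WT against sgQKI+EV; it changed no call of the genes named. With the GC correction 15 and 19 passed for QKI7-WT against QKI7-△KH at 0 h and 8 h, 3 for the decay difference to 8 h of sgQKI+EV against sgNS+EV, and 0, 24 and 8 for the decay differences to 4 h of sgQKI+EV against sgNS+EV, QKI7-WT against QKI7-△KH and QKI7-WT against sgQKI+EV; STRN4 then turned to −0.052 in sgQKI+EV against sgNS+EV at 4 h. Fitted on the compared groups alone, 4 passed for sgQKI+EV against sgNS+EV at 0 h, 1 for QKI7-WT against QKI7-△KH at 0 h, 20 for QKI7-△KH against sgQKI+EV, 7 for the decay difference to 8 h of sgQKI+EV against sgNS+EV, 15 for QKI7-WT against QKI7-△KH at 8 h, and 0 for QKI7-WT against QKI7-△KH or sgQKI+EV at 4 h and for the decay difference to 4 h of QKI7-WT against QKI7-△KH. The cause was not tested.

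For QKI7-WT against QKI7-△KH at 0 h, further Hippo genes passed in 1 (quantile), 0 (library totals) and 1 (compared groups alone), and 0 to 1 with 1 library left out. YAP and TAZ targets passed in 1, 1 and 2 in the same order, 10 with the GC correction, and 0 to 4 with 1 library left out. For the decay difference to 8 h of sgQKI+EV against sgNS+EV, further Hippo genes passed in 1, 1 and 6, 4 with the GC correction, and 0 to 1 with 1 library left out. These list counts were chosen after seeing the data.

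Leaving out 1 library, with the lone library assumed to vary like the other groups, gave 0 to 3 (QKI7-WT against QKI7-△KH, 0 h), 0 to 6 (QKI7-△KH against sgQKI+EV), 8 to 13 (sgQKI+EV against sgNS+EV, 8 h), 0 to 5 (QKI7-WT against QKI7-△KH, 8 h), 16 to 28 (sgQKI+EV against sgNS+EV, 4 h), 1 to 23 (QKI7-WT against QKI7-△KH, 4 h), 10 to 30 (QKI7-WT against sgQKI+EV, 4 h), and, for the decay differences to 4 h in the order above, 0 to 7, 0 to 30 and 0 to 28. The falls over 8 h held in 45 or 46 members. Of values of named genes, 44 with quantile normalisation, 40 with library totals, 23 with the compared groups alone, 13 with the GC correction, 1 with pseudocount 0.1 and 203 over all left-out libraries no longer passed, with the same direction. Of 22 paralog pairs, 15 to 20 passed under the alternatives, 15 without QKI7-WT 8 h replicate 1.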
